A study of Mus musculus with 4 samples.

Results

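The endothelial cells of the submandibular gland (SMG) and the sublingual gland (SLG) of the mouse were taken from single-cell RNA sequencing (scRNA-seq) of both glands together. A barcode was taken as an endothelial cell when Cdh5, Kdr, Flt1, Emcn and Pecam1 summed to at least 4 UMIs, Col1a1 and Col1a2 to at most 2, Mucl2 was under 30% of its UMIs and Ptprc was 0. A UMI (unique molecular identifier) marks 1 captured RNA molecule, so these are counts of molecules. The rule found 257 cells among 15707 barcodes, or 1.64% (exact binomial 95% interval 1.44 to 1.85). All intervals given here cover counting error only.

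The 4 samples are 1 group: SMG and SLG of WT female C57BL/6N mice, 6 to 8 weeks old, with no treatment, in what the labels call physiological status. The labels name 2 mice and the methods of the study 3, and the glands were cut up and digested with collagenases, hyaluronidase, dispase and pancreatin before loading. The 4 samples lie in 1 matrix with 1 barcode suffix, and no cell could be traced to its sample, animal or gland. The matrix counts as 1 sample, no test was run and no spread between animals can be given.

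Endothelial cells line all blood and lymphatic vessels. They sense vascular endothelial growth factor (VEGF) and angiopoietins through receptor tyrosine kinases, hold the vessel tight through VE-cadherin junctions, and control the passage of water, lipids and leukocytes. In exocrine glands the capillaries carry fenestrae closed by diaphragms, through which the fluid and solutes for secretion leave the blood. Arteries, veins, capillaries and lymphatic vessels each use a partly different set of genes.

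The 5 genes of the rule chose the cells and are given as a description. Their sum had a median of 15 UMIs per cell and a highest value of 54. All 5 were detected in 139 of the 257 cells and at least 3 of them in 247. The cells held 69.8% of all UMIs of these 5 genes in the matrix. Flt1, a VEGF receptor, had 1251 UMIs in 240 cells, and Cdh5, the VE-cadherin of the junctions, had 411 UMIs in 192 cells. Of 325 barcodes that reached the sum of 4, the Mucl2 limit left out 50, Ptprc 12 and the collagens 7, with 1 barcode left out by more than one of them. At the edge of the rule, 15 cells had a sum of exactly 4 and 23 further barcodes met the other conditions with a sum of 3. The median UMIs of a further list of 19 pan-endothelial genes, none of them in the rule, was 5 at a sum of 4, 4 at a sum of 3, 1 at a sum of 2 and 0 at a sum of 1.

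That further list also served to check the label. Of the 257 cells, 251 had at least 3 UMIs of its genes, the median was 16 and the range 0 to 72, and 1 cell had none. The data therefore did not go against the label in nearly all cells, although cells were chosen by genes that accompany these.

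The cells had a median of 2504 UMIs (range 1384 to 33864) and 1179 genes, against 2612 UMIs and 679 genes in the other barcodes. Secretory transcripts took a median of 9.37% of the UMIs of an endothelial cell and 70.2% of those of another barcode, where they push down every other gene. The level of a gene is therefore its UMIs summed over a class per 10000 UMIs outside 71 listed secretory genes. The cells held 644383 such UMIs, so a gene with no UMI may still have had a level of up to 0.0466 (3 counts). Levels were set beside those in the 15450 other barcodes, in 412 fibroblasts and in 83 pericytes and smooth muscle cells, called mural cells here. Both stromal classes were chosen to hold at most 1 UMI of the 5 rule genes. The fibroblasts had no limit on epithelial genes. A list of 11 epithelial genes summed to a level of 55.8 there, beside 46.8 in the other barcodes and 14.6 in the endothelial cells. The part of epithelial RNA in the comparisons with fibroblasts was not tested. The mural class held 2001 UMIs of Acta2, a smooth muscle gene, but 1 of Kcnj8 and 2 of Abcc9, which are pericyte genes. Of other pericyte genes it held 25 UMIs of Higd1b and 3 of Vtn. Rgs5, Notch3, Pdgfrb and Cspg4, which were used to choose the class, had 345, 90, 39 and 11. Kcnj8 and Abcc9 had 638 and 374 UMIs in all barcodes, of which 58 and 63 were in the endothelial cells, so most lay in neither class. The share of pericytes in this class is thus not known, and comparisons with it may say less about pericytes than about smooth muscle. A gene was called higher or lower at a ratio of at least 4 in either direction, among genes with at least 20 UMIs on either side. With all UMIs as the denominator every ratio over the other barcodes is 3.09 times larger, so ratios between 0.324 and 1 turn direction, and every ratio over fibroblasts is 0.820 times its value. Shares of cells with a UMI are set beside those in 675 lymphocytes, which should lack endothelial genes and had a median of 2020 UMIs.

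Promoters of 5 genes that the results turn on are shown first, as the 250 bases before the start in RefSeq on GRCm38.p6. Tie1, Robo4, Btnl9 and Car4 are genes with large ratios in the endothelial cells, and Cldn5 was found in few of them. Capitals mark AGGAAG or its reverse complement CTTCCT, a form of the ETS factor motif, or the ETS form CCGGAA with its reverse complement TTCCGG. The matches were searched on both strands and may overlap.
Tie1, chr4:118489850-118490099, minus strand: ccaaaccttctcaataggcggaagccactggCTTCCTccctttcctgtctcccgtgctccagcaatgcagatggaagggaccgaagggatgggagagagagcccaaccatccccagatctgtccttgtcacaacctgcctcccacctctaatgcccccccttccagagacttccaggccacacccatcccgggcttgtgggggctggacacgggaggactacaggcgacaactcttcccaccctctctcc
Robo4, chr9:37401722-37401971, plus strand: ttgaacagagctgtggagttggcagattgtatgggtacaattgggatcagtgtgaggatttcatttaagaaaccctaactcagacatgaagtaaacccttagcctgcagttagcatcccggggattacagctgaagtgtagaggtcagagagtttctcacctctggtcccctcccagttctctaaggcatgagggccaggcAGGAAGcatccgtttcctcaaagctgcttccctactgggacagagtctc
Btnl9, chr11:49187090-49187339, minus strand: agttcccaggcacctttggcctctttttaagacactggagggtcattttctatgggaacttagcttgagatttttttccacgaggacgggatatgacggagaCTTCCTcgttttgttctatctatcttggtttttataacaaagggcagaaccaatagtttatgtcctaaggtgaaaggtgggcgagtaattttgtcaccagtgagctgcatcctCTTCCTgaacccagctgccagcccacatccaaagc
Car4, chr11:84957504-84957753, plus strand: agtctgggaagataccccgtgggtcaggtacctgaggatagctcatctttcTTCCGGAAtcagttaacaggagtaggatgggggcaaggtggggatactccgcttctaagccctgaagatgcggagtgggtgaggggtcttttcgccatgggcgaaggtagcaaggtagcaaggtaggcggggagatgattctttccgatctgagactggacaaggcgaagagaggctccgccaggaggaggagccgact
Cldn5, chr16:18776597-18776846, plus strand: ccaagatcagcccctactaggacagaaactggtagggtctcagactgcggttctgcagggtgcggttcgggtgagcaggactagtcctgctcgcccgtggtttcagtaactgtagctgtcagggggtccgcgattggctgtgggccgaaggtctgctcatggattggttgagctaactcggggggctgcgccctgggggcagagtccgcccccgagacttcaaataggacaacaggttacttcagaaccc
AGGAAG or CTTCCT was present before 32.3% of the 27025 genes whose promoters were searched. It was present before 7 of the 11 pan-endothelial genes that matched (63.6%), and before 9 of 20 matched genes (45.0%) among the 25 with the largest ratios. A gene counted when any of its windows held a match. By window the shares were 29.5%, 53.3% and 43.5% in the same order. CCGGAA or TTCCGG was present before 13.6% of the genes searched, 0 of these 11 and 3 of these 20. In the windows shown, Robo4 and Tie1 each held 1 match, Btnl9 2, Car4 a single overlapping pair and Cldn5 none. A match of letters is a description of the sequence and not of a bound site.

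Against all other barcodes, 1025 of 13865 genes tested (7.39%) were at least 4-fold higher in the endothelial cells and 585 (4.22%) at least 4-fold lower. With all UMIs as the denominator the same counts were 4978 and 59. All 19 pan-endothelial genes were among the higher ones, with a median log2 ratio of 6.14 beside 0.09 over all genes. Since the same cells and contrast chose the members, nothing follows from these counts beyond the description. Egfl7, a secreted protein of the vessel wall, had 910 UMIs in 222 cells (86.4%), a lowest, median and highest of 0, 3 and 20 UMIs per cell, and a level of 14.1 (13.2 to 15.1) against 0.147 in the other barcodes. Its share in lymphocytes was 0.444%. Esam, an adhesion molecule of endothelial junctions, was at 5.57 (5.01 to 6.18), and also at 1.98 in mural cells. Robo4, a receptor that steadies vessel walls, was at 1.26 (0.998 to 1.56), with 0 UMIs in both stromal classes. Erg, an ETS factor of endothelial identity, was at 1.07 (0.833 to 1.36) in 54 cells and 108 times its level in the other barcodes (68.6 to 174), or 42.1 times as a mean over cells.

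The 25 genes with the largest ratios over the other barcodes, rule genes left out, included capillary genes, receptors and transcription factors. Btnl9, a butyrophilin-like membrane protein on chromosome 11 (49165585 to 49187159), had 351 UMIs in 152 cells and a ratio of 131 (106 to 163). Thrsp, a nuclear protein known from lipid synthesis, was at 3.69 (3.24 to 4.19) in 134 cells with a ratio of 127 (98.5 to 165). Both were found in 0 of 675 lymphocytes, which allows a share of up to 0.444%. Car4, a carbonic anhydrase anchored to the capillary surface, was at 3.60 (3.15 to 4.09) with a ratio of 125 (97.0 to 164). Gpihbp1, which holds lipoprotein lipase on the capillary wall, lies on chromosome 15 (75596628 to 75599481) and had 460 UMIs in 168 cells and a ratio of 118 (98.6 to 141). Further members of this group were the transcription factors Sox7, Sox11, Meox1, Hoxd8, Nr5a2 and Erg, the receptors Flt4 and Tie1, and Ushbp1, Exoc3l2, Arhgef15, Esm1, Ces2e, Ccdc85a, Endou, Slc26a10, Tmem26, Rtp3 and Syt15. Their ratios lay between 98.4 for Tie1 and 147 for Slc26a10. As means over cells, the ratios of Thrsp, Car4, Gpihbp1, Tie1 and Btnl9 were 67.7, 73.5, 64.6, 59.0 and 87.3. Nts, the neurotensin precursor, and Mmrn1, a multimerin of lymphatic endothelium, had ratios of 1007 and 122, but Nts came from 2 cells and Mmrn1 from 3.

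**Figure D1:**
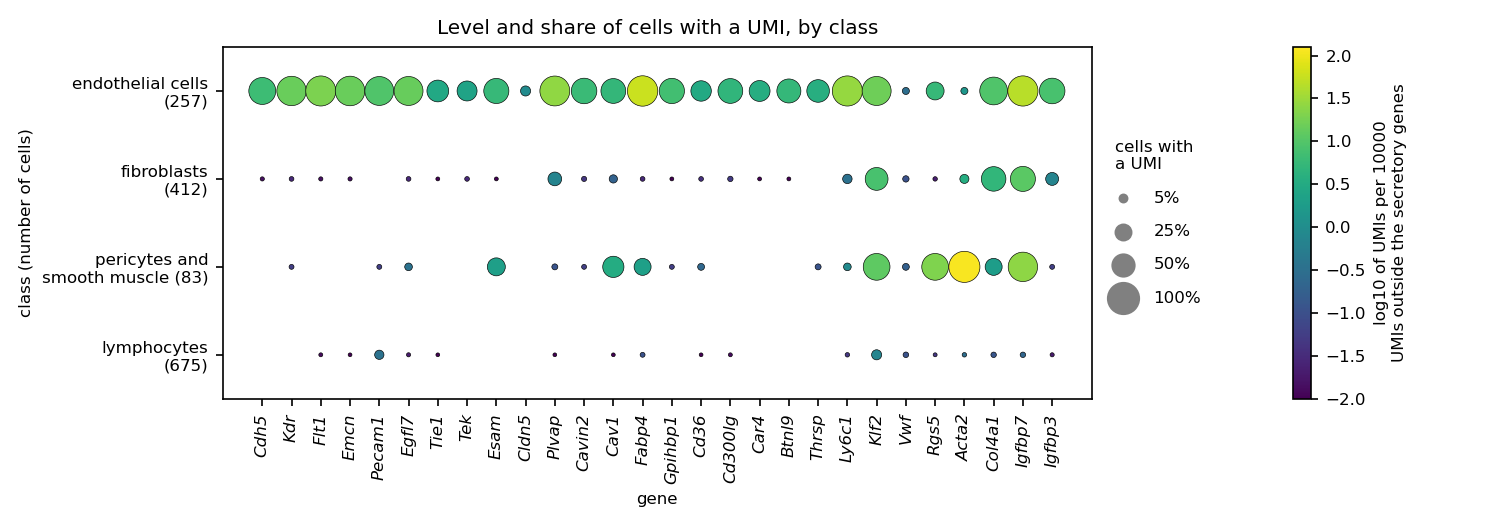
Level and share of cells with a UMI for 28 genes in 4 classes. Each column is a gene and each row a class with its number of cells. Dot area rises with the percent of cells with a UMI and colour gives the log10 of UMIs per 10000 UMIs outside the secretory genes. No dot is drawn where a class had no UMI. Plvap and Fabp4 have large dots in the endothelial row, and Cldn5 and Vwf have small ones there.

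Of the 15 genes with the highest level in the endothelial cells, 3 were at least 4-fold higher than in the other barcodes. Fabp4, a fatty acid-binding protein of the cytosol, had 3755 UMIs in 245 cells (95.3%), with a lowest, median and highest of 0, 13 and 60 UMIs per cell. Its level was 58.3 (56.4 to 60.2) against 0.599 in the other barcodes, 0.0293 in fibroblasts and 2.09 in mural cells. With every cell thinned to 1000 UMIs it was still found in 85.6% of endothelial cells and 0.296% of lymphocytes. Igfbp7, a secreted protein of vessel walls that binds insulin-like growth factors, was at 44.8 (43.2 to 46.5), and at 25.2 in mural cells. Ly6c1, a surface antigen that capillary endothelium shares with some leukocytes, was at 28.5 (27.2 to 29.9) in 93.8% of the cells. Wfdc18, another of the 15, was at 51.0 in 55.3% of the cells and in 45.9% of the lymphocytes, so it was not read as endothelial expression.

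The receptors for VEGF and the angiopoietins were far above the other classes, whereas most of their ligands were not. Of the 8 receptor genes, 2 belong to the rule and the other 6 were all at least 4-fold higher than in the other barcodes, in fibroblasts and in mural cells. In fibroblasts and mural cells as comparison, 5.54% of 8065 and 10.9% of 4996 genes tested were higher in the endothelial cells, and 6.6% and 3.22% lower. Tie1, the orphan receptor of the angiopoietin pathway, had 182 UMIs in 124 cells, at most 4 in a cell. Tek, the angiopoietin receptor Tie2, was at 2.39 (2.03 to 2.80), and Nrp1, a VEGF co-receptor, at 7.36 (6.71 to 8.05). Ptprb, the phosphatase that holds Tek in check, was at 9.64 (8.89 to 10.4) in 76.3% of the cells. Flt4, the receptor for VEGF-C, was found in 36 cells, most of which were not among the lymphatic marked cells described below.

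Of 11 ligand genes, 7 reached the filter against the other barcodes and 2 were higher. Vegfc was at 0.450 (0.301 to 0.646) against 0.0418. The other, Angptl4, had 4 UMIs in 3 cells. Vegfa, the main ligand of Kdr, had 31 UMIs in 31 cells and a level of 0.481 (0.327 to 0.683) against 0.703 in the other barcodes, a direction that turns with all UMIs as the denominator. It was at 0.614 in fibroblasts and 0.349 in mural cells. Pgf, placental growth factor, had 4 UMIs, a level of 0.0621 beside 1.39 in mural cells. Angpt2, the endothelial antagonist of Tek, had 6 UMIs in 6 cells. Tip cell genes were uneven. Esm1, endocan, was at 1.96 (1.63 to 2.33) in 55 cells with up to 10 UMIs, whereas Apln was found in 5 cells.

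Genes of fenestrae and caveolae were higher in the endothelial cells, and barrier transporters were scarce. Against the other barcodes 11 of 14 tested members of that list were higher and none lower. Plvap, the protein of the diaphragms across fenestrae and caveolae, had 1668 UMIs in 237 cells (92.2%), with 0, 6 and 22 UMIs as lowest, median and highest. Its level was 25.9 (24.7 to 27.2), against 0.278 in the other barcodes, 0.710 in fibroblasts and 0.116 in mural cells. Nearly all cells thus carried it, and its share in lymphocytes was 0.148%. Cavin2 was at 6.08 (5.50 to 6.72) and 0.0581 in mural cells, while the other caveolar genes Cav1, Cavin1 and Cavin3 were at 5.25, 2.55 and 3.45 in endothelial and at 3.31, 6.22 and 7.26 in mural cells. Aqp1, a water channel, was found in 55 cells only, with a highest value of 29 UMIs. The blood-brain barrier transporters Mfsd2a and Slco1c1 had 1 and 0 UMIs, and Slc2a1, the glucose transporter of barrier vessels, was at 0.326 (0.202 to 0.498) against 0.534 in fibroblasts.

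**Figure D2:**
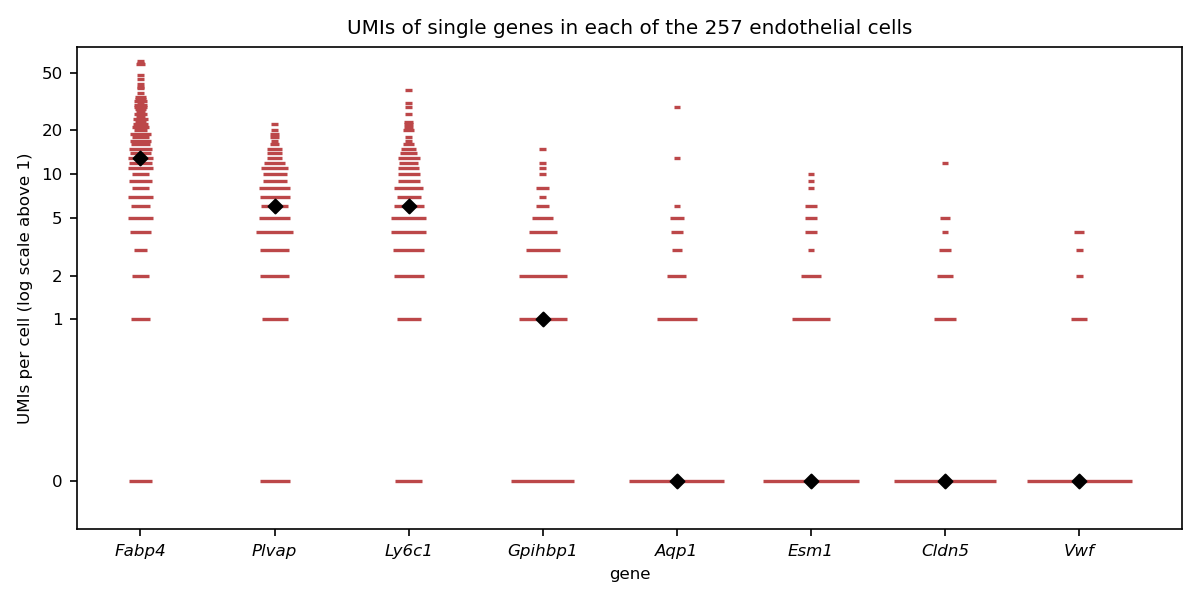
UMIs of 8 single genes in each of the 257 endothelial cells. The y axis is UMIs per cell on a log scale above 1, each bar is a number of UMIs and grows wider with the number of cells that had it, and diamonds are medians. The medians are 13 for Fabp4, 6 for Plvap and Ly6c1, 1 for Gpihbp1, and 0 for Aqp1, Esm1, Cldn5 and Vwf.

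Genes of capillaries and of lipid handling were higher as well. All 8 capillary genes were higher than in the other barcodes, 7 of 8 higher than in fibroblasts and 7 of 8 than in mural cells. Cd36, a receptor for fatty acid uptake, was at 2.96 (2.56 to 3.42), and Cd300lg, a mucin-like adhesion receptor, at 4.80 (4.28 to 5.36) in 63.0% of the cells. Of the lipid list, 11 of 18 tested were higher, including the lipid phosphate phosphatases Plpp1 at 9.28 (8.55 to 10.1) and Plpp3 at 20.4 (19.3 to 21.6). Scarb1, the receptor for high-density lipoprotein, was at 2.41 (2.04 to 2.82) with 0 UMIs in mural cells. Lpl, the lipase that Gpihbp1 binds, had 12 UMIs here and a level of 0.186 (0.0962 to 0.325) against 6.13 in fibroblasts. The lipase was thus higher in fibroblasts and its anchor in the endothelial cells. Pparg and Meox2, regulators of lipid uptake in muscle capillaries, had 10 and 5 UMIs. Tcf15, their partner there, had 90 UMIs in 70 cells, and its level of 1.40 (1.12 to 1.72) lay near the 1.68 of mural cells.

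Transcription factors divided into those found in endothelial cells and those shared with mural cells. Of 34 tested, 24 were higher than in the other barcodes, 19 of 29 than in fibroblasts and 13 of 29 than in mural cells. Sox7, Sox17 and Sox18, the SOX factors of vessels, were found in 43, 55 and 51 cells, with no UMI of any of them in mural cells and 1 UMI in fibroblasts at most per gene. Gata2 had 46 UMIs in 40 cells and Meox1 76 in 58. Klf2, which responds to blood flow, was at 15.6 (14.6 to 16.6) with up to 35 UMIs in a cell, beside 8.01 in fibroblasts and 12.3 in mural cells. Epas1, the hypoxia factor HIF-2 alpha, was at 6.81 (6.19 to 7.48) beside 6.16 in mural cells, and Mef2c at 7.54 (6.89 to 8.24) beside 8.89. None of these 3 factors passed a ratio of 4 between the endothelial and the mural cells.

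Notch and BMP pathway genes were higher in part. Of the Notch list 8 of 14 tested were higher than in the other barcodes. Notch4 had 55 UMIs in 49 cells, its ligands Dll4 40 in 35 and Jag2 59 in 49. Notch3, the mural receptor, was at 0.528 beside 5.23 in mural cells, a class that was chosen in part by Notch3 itself. Of the TGF-beta and BMP list 10 of 18 were higher than in the other barcodes but 3 of 14 than in fibroblasts. Eng, endoglin, and Acvrl1, the BMP receptor ALK1, were at 6.13 (5.54 to 6.77) and 2.90 (2.50 to 3.35), and their target Id1 at 3.85 (3.38 to 4.36) in 123 cells. Bmp4 and Bmp2 had 3 UMIs each and Bmp6 had 14.

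**Figure D3:**
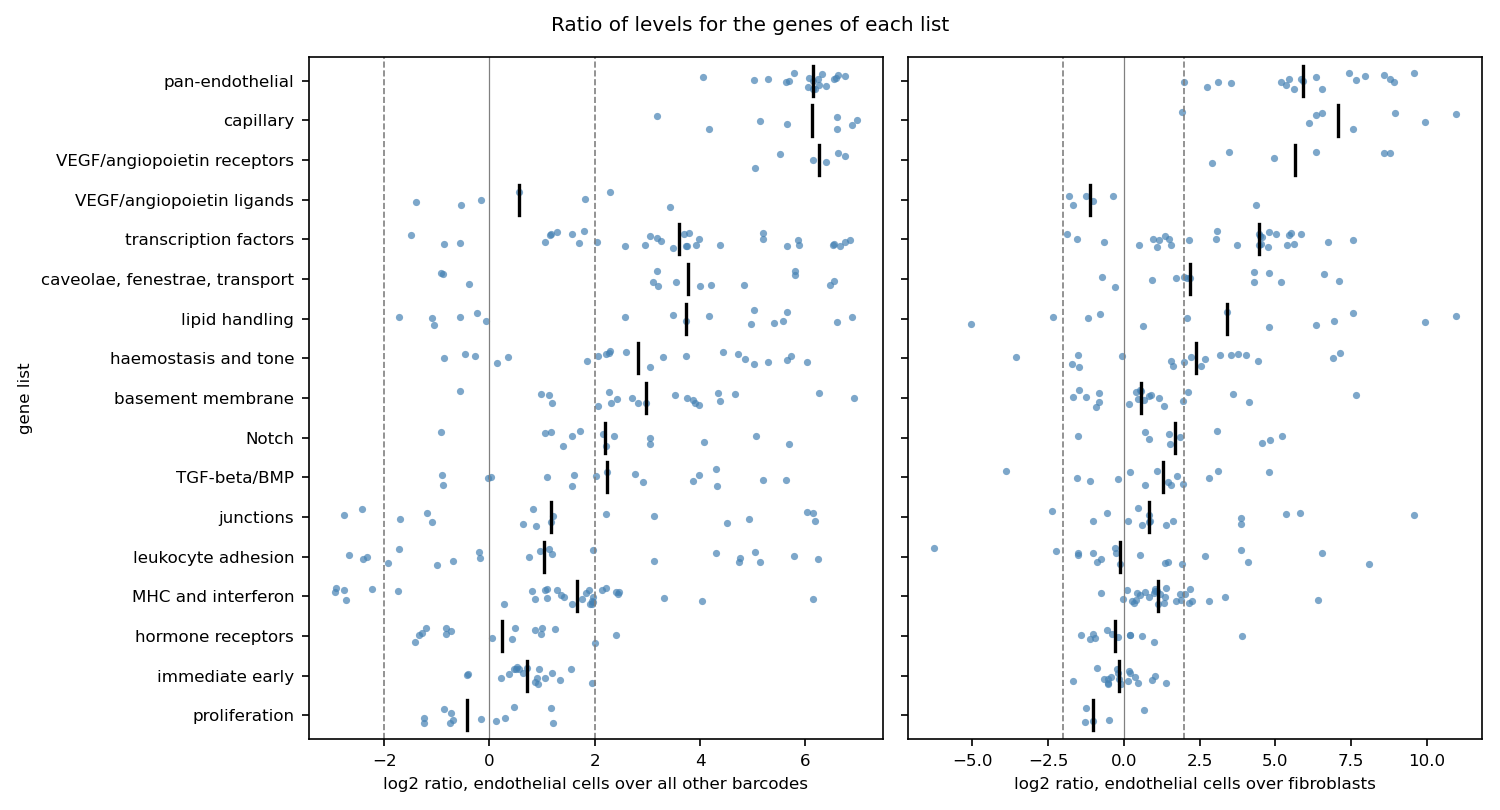
Log2 ratio of the level in endothelial cells over all other barcodes (left) and over fibroblasts (right) for the genes of 17 lists. Each point is a gene that reached 20 UMIs on either side, rule genes left out, black bars are medians over the list and dashed lines mark a ratio of 4 in either direction. The median for the VEGF and angiopoietin ligands is 0.56 on the left and -1.13 on the right, and for the pan-endothelial list 6.14 and 5.91.

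At the junctions, 7 of 17 genes tested were higher than in the other barcodes and 2, the epithelial genes Ocln and Cldn10, lower. Cldn5, the main claudin of tight endothelium, had 58 UMIs in 24 cells (9.34%, 6.08 to 13.6), 0 to 12 per cell, a level of 0.900 (0.683 to 1.16). Its level in the other barcodes was 0.0128, and it was found in 0 of 675 lymphocytes. The 4 cells with most lymphatic transcripts, described below, held 24 of its 58 UMIs. Jam2 and Jam3, adhesion molecules that leukocytes bind, were at 2.34 (1.98 to 2.75) and 2.27 (1.91 to 2.66), and Gja1, connexin 43, was at 1.80 (1.49 to 2.16) with a ratio of 22.7 over the other barcodes.

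Receptors that set vessel tone and clotting were higher, and Nos3, Vwf and Ptgis of the same list were found in few cells or none. Of 23 genes tested, 16 were higher than in the other barcodes and none lower. Ramp2 and Ramp3, which with Calcrl form the adrenomedullin receptors, were at 6.46 (5.85 to 7.11) and 3.06 (2.65 to 3.52), and Calcrl at 1.86 (1.54 to 2.23). Thbd, thrombomodulin, had 295 UMIs in 153 cells, at most 7 in a cell. Ednrb, an endothelin receptor, was at 2.65 (2.27 to 3.08), with 0 UMIs in fibroblasts. The ligand Edn1 was at 0.854 (0.643 to 1.11) against 0.773 in the other barcodes and 2.77 in fibroblasts. Nos3, endothelial nitric oxide synthase, had 23 UMIs in 22 cells, a level of 0.357 (0.226 to 0.536). Vwf, von Willebrand factor, had 19 UMIs in 10 cells (3.89%, 1.88 to 7.04), beside 1.93% of lymphocytes, and its level of 0.295 (0.178 to 0.460) lay beside 0.358 in the other barcodes, a ratio of 0.823 (0.493 to 1.29) that turns direction with all UMIs as the denominator. Ptgis, prostacyclin synthase, had 0 UMIs in the endothelial cells, which allows a level of up to 0.0466.

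Adhesion molecules differed in how many cells held them. Of 22 genes tested on the adhesion and chemokine list, 8 were higher than in the other barcodes and 3 lower, 5 of 19 were higher than in fibroblasts, and the median log2 ratio over fibroblasts was -0.14. Podxl and Cd34, sialomucins of the vessel surface, were at 8.04 (7.36 to 8.76) and 4.10 (3.62 to 4.62), and Icam2 at 2.05 (1.71 to 2.43). Cxcl12, a chemokine, was at 10.3 (9.49 to 11.1) in 163 cells, with 0, 1 and 46 UMIs as lowest, median and highest. Icam1, an adhesion molecule that inflammation raises, was at 1.57 (1.28 to 1.90) in 68 cells, beside 2.89 in fibroblasts. Selp and Sele, the selectins that catch leukocytes, were found in 8 cells each, Vcam1 in 11 and Ackr1 in 4. Madcam1, Glycam1 and Chst4, genes of high endothelial venules, had 0 UMIs in the whole matrix.

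Genes of MHC class I and II and of the interferon response were compared as 1 list. Of 32 genes tested on the MHC and interferon list, 8 were higher than in the other barcodes and 5 lower, while 21 of 29 were higher than in mural cells. B2m, the light chain of class I, was at 15.7 (14.7 to 16.7) against 4.62 in the other barcodes and 2.09 in mural cells, and H2-D1 at 18.6 (17.6 to 19.7) against 7.66 and 1.92. The ratios over the other barcodes were 3.39 and 2.43, so neither was called higher there. The class II genes H2-Aa, H2-Ab1 and H2-Eb1 were found in 28, 31 and 31 cells, with ratios of 0.151, 0.131 and 0.147 over the other barcodes, which include antigen-presenting cells. With all UMIs as the denominator, 3.09 times larger, these ratios stay under 1 but are no longer called lower. Their invariant chain Cd74 was in 15.2% of endothelial cells and 8.30% of lymphocytes. Ly6a, also known as Sca-1, was at 26.5 (25.2 to 27.8) and Ifitm3, an interferon-induced membrane protein, at 28.4 (27.2 to 29.8) with a ratio of 5.27 over the other barcodes.

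Basement membrane genes were high in endothelial cells, fibroblasts and mural cells, with summed levels of 83.1, 47.9 and 54.2. Against the other barcodes 17 of 21 were higher, but against fibroblasts 4 of 21. Against mural cells 8 of 21 were higher and 1 lower. Col4a1 and Col4a2, the main type IV collagen chains, were at 9.42 (8.69 to 10.2) and 7.65 (6.99 to 8.36), beside 5.03 and 3.09 in fibroblasts and 1.86 and 1.80 in mural cells. Sparc was at 16.8 (15.9 to 17.9) beside 11.7 in fibroblasts. Col15a1 and Nid1 went the other way, at 2.62 (2.24 to 3.05) and 1.24 (0.984 to 1.55) beside 6.28 and 2.36. Mmrn2, an endothelial multimerin, was at 2.95 (2.54 to 3.40) beside 0.0146 in fibroblasts.

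Of the secreted and paracrine genes, 12 of 26 tested were higher than in the other barcodes, and against fibroblasts 10 of 21 were higher and 5 lower. Igfbp3, a carrier of insulin-like growth factors, was at 8.19 (7.51 to 8.92) beside 0.0581 in mural cells, whereas its relative Igfbp4 was at 0.916 (0.697 to 1.18) beside 7.67 in fibroblasts. Pdgfb, which recruits pericytes, had 98 UMIs in 77 cells, and Kitl, the ligand of Kit, 236 UMIs in 146 cells. Sema7a had 90 UMIs in 73 cells and 0 in both stromal classes. Aplnr, the apelin receptor, had 60 UMIs in 43 cells, also with 0 in both. Wnt2, Wnt9b, Dkk2, Nrg1 and Artn had no UMI in the endothelial cells.

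Of 18 hormone receptor genes tested, 1 was at least 4-fold higher than in the other barcodes, a share near the 7.39% of all 13865 genes tested. This was Nr3c1, the glucocorticoid receptor, at 1.99 (1.66 to 2.36) against 0.377. Esr1, an oestrogen receptor, had 0 UMIs in the endothelial cells.

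Immediate early genes, which respond within minutes to stress, were at like levels in the 3 classes, with summed levels of 294, 313 and 311 in endothelial cells, fibroblasts and mural cells. None of the 19 passed a ratio of 4 over the other barcodes, the fibroblasts or the mural cells, and the median log2 ratio over fibroblasts was -0.15. Fos was at 43.0 (41.4 to 44.6) in 96.9% of the cells, beside 49.4 in fibroblasts and 63.4 in mural cells. Atf3 was at 17.3 (16.3 to 18.3) beside 31.9 and 35.8. Of the proliferation genes, none of 12 was higher or lower than in the other barcodes, and 1 cell held 34 UMIs of the list. Mki67 was found in 2 cells.

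The cells were then divided by genes of vessel types. A cell was called arterial, venous or lymphatic marked when it had at least 2 UMIs of 1 list and more than of the other lists, which makes these classes ranges of UMI counts and not cell types. There were 78 arterial marked cells (30.4%, 24.8 to 36.4), 22 venous marked cells (8.56%, 5.44 to 12.7), 6 lymphatic marked cells (2.33%, 0.861 to 5.01) and 151 that reached no class. Of the arterial marked cells 32 lay at exactly 2 UMIs, and of the venous ones 13. The arterial list summed to a level of 5.25 in the endothelial cells and 2.79 in mural cells. Of its 6 genes tested against mural cells 2 were higher, beside 10.9% of all genes tested. At least 2 UMIs of the pericyte list were found in 31 of the 78 arterial marked, 8 of the 22 venous marked and 31 of the 151 cells with no class. The part of mural RNA in the arterial marks was not tested. The marked cells were deeper, with medians of 2863.5, 2869.5 and 3727.5 UMIs in the order given, beside 2271 in the rest. With every cell thinned to 1000 UMIs, 26 were arterial and 10 venous marked.

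Capillary genes were found in the arterial and the venous marked cells and in those with no class, some of them at different levels. Fabp4 was at 50.8 (47.9 to 53.8) in the arterial marked cells, 67.0 (64.3 to 69.8) in cells with no class, 54.0 (48.2 to 60.2) in the venous and 8.98 (5.32 to 14.2) in the lymphatic marked cells. Plvap was at 24.7 (22.7 to 26.9), 28.6 (26.8 to 30.5), 21.2 (17.7 to 25.2) and 7.48 (4.19 to 12.3) in the same order. The intervals of the lymphatic marked cells thus lay under all others for both genes. Their 18 UMIs of Fabp4 came from 2 cells, and the 4 cells with at least 5 lymphatic UMIs held none of them and 6 of the 15 UMIs of Plvap. Gpihbp1, Car4 and Igfbp3 were lower in the venous marked cells than in the arterial ones, with intervals that did not overlap. Igfbp3 was at 2.02 (1.04 to 3.53) in the venous and 9.98 (8.73 to 11.4) in the arterial marked cells. Aqp1 was at 8.24 (6.10 to 10.9) in the venous marked cells, in 8 of 22 cells, beside 1.66 (1.18 to 2.28) in the arterial ones. A single cell held 29 of the 49 UMIs, and without it the level was 3.66 (2.23 to 5.65). Icam1 was at 3.36 (2.05 to 5.19) in the venous and 1.05 (0.673 to 1.56) in the arterial marked cells. Without the cell that held 9 of its 20 venous UMIs it was at 1.94 (0.971 to 3.48), which overlaps the arterial interval.

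**Figure D4:**
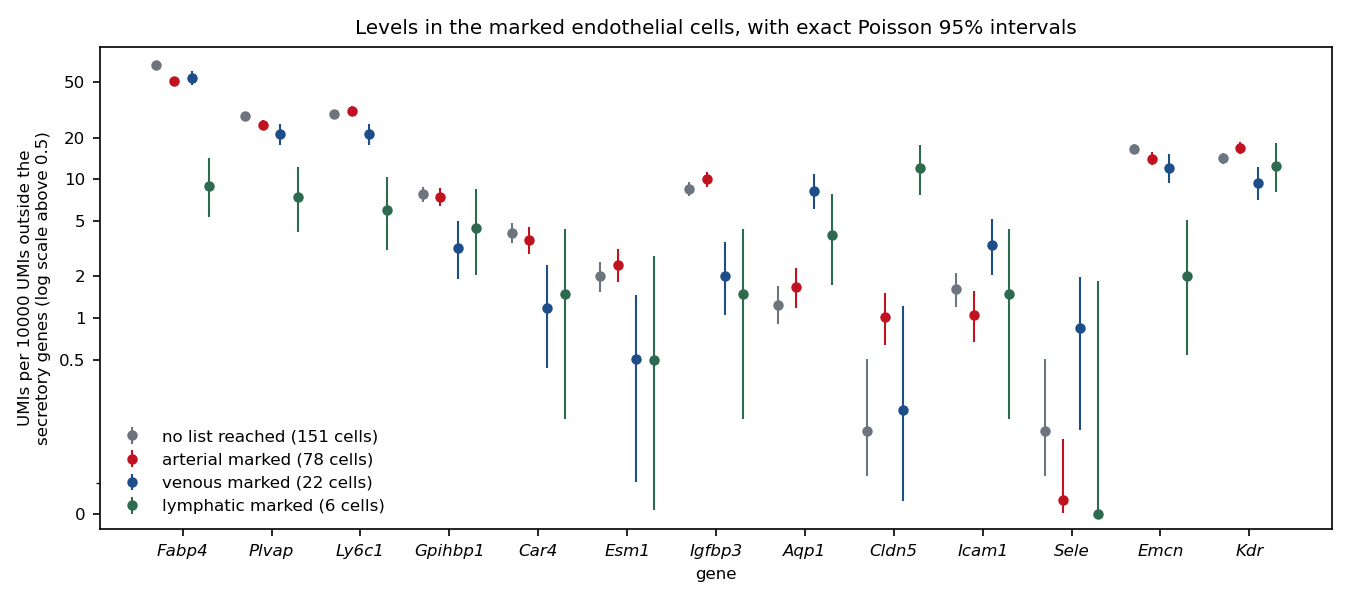
Levels of 13 genes outside the 3 vessel lists in the marked endothelial cells and in those with no class. The y axis is UMIs per 10000 UMIs outside the secretory genes, on a log scale above 0.5, points are levels over all cells of a class and bars are exact Poisson 95% intervals. Fabp4, Plvap and Ly6c1 are lowest in the 6 lymphatic marked cells, Aqp1 is highest in the 22 venous marked cells, where 1 cell holds 29 of 49 UMIs, and Cldn5 is highest in the lymphatic marked cells.

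The genes outside the lists that differed most in the arterial marked cells were in part mural genes. Among these 8 were Acta2, Rgs4, Cox4i2 and Notch3, the last 1 of the genes that chose the mural class. They were at 116, 6.74, 5.34 and 5.23 in mural cells. In arterial marked cells with no more than 1 UMI of any other cell type list they all had 0 UMIs, which for Acta2 and Notch3 follows in part from the choice of these cells, as both are on the pericyte list. Mgp, matrix Gla protein, was at 3.55 (2.82 to 4.41) in the arterial marked cells against 0.625 in the other cells. Without its top cell, which held 26 of 81 UMIs, it was at 2.42 (1.83 to 3.15). It was at 3.38 against 0.163 in the smaller set without cells that held other transcripts. Stmn2, a stathmin, was at 1.36 against 0.240, and at 0.815 against 0.163 in that smaller set, and without its top cell, which held 12 UMIs, it was at 0.851 in the arterial marked cells. Fbln5, an elastic fibre protein of arteries, was at 1.27 against 0.144. In the smaller set it was at 0.466 against 0.217, but that arterial level rests on 4 UMIs. In the venous marked cells Edn1 was at 3.53 against 0.581, and without its top cell, which held 9 of 21 UMIs, it was at 2.19 (1.13 to 3.83). In the smaller set it was at 2.63 against 0.0796, but that venous level rests on 5 UMIs. Cat and Wfdc2, also among their 8 genes, had 0 UMIs in the smaller set of 10 venous marked cells.

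Most transcripts of the lymphatic list lay in 4 cells, taken as those with at least 5 UMIs of that list. All 214 UMIs of Ccl21a, the chemokine that draws dendritic and T cells into lymphatic vessels, were in these cells, with 23, 114, 9 and 68 UMIs. Mmrn1 had 6, 5, 0 and 14 UMIs in the same order, Reln 3, 2, 1 and 4, and Nts 5, 0, 18 and 0. Prox1, the master factor of lymphatic identity, had 3, 3, 3 and 0, and Lyve1, a hyaluronan receptor, 1, 1, 0 and 8. Each of the 4 cells carried at least 4 of these 6 genes. This follows in part from the choice of the cells, as all of these genes but Nts are on the list. None of the 4 had a UMI of Fabp4 or Emcn, whereas Egfl7 was found in all 4 with 26 UMIs and Cdh5 in all 4 with 10. No other cell had more than 2 UMIs of the lymphatic list, though 37 of the endothelial cells had at least 1. Of the same list, Flt4 had 9 of its 44 UMIs in the 4 cells, and Pdpn had 1 UMI in 1 of them. Cldn5 had 5, 12, 5 and 2 UMIs in these cells, and its level in the lymphatic marked cells was 7.24 (3.74 to 12.6) without the cell with 12, and Igfbp5 41, 0, 9 and 2.

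Mural transcripts were found in many of the cells. Rgs5, a regulator of G protein signalling of pericytes, had 361 UMIs in 83 of the 257 cells (32.3%) and in 0.296% of lymphocytes, with up to 21 UMIs in a cell. In the 41 cells with at least 3 UMIs of Rgs5, Kcnj8 and Abcc9, the subunits of the pericyte potassium channel, were at 3.08 (2.19 to 4.22) and 4.51 (3.41 to 5.84). In the 174 cells without Rgs5 they were at 0.172 (0.0691 to 0.354) and 0.0491 (0.00595 to 0.178). Pdgfrb went the same way, at 2.29 (1.54 to 3.29) and 0.0246 (0.000622 to 0.137). Fabp4, Plvap and Egfl7, which are outside the rule, were lower with at least 3 UMIs of Rgs5 than in cells without. Gja4, of the arterial list, went the other way, at 1.58 (0.966 to 2.44) and 0.590 (0.378 to 0.877). The rule genes Kdr, at 14.4 and 14.7, and Cdh5, at 6.09 and 6.61, had intervals that overlapped. Fabp4 was at 52.6 (48.7 to 56.8) and 60.1 (57.7 to 62.5), with intervals that did not overlap. Plvap was at 22.6 (20.1 to 25.4) and 26.8 (25.2 to 28.4), with intervals that overlapped by a little, and for Egfl7 the intervals were 10.4 to 14.3 and 13.8 to 16.2. The mural class itself was at 0.0581 for Kcnj8 and 0.116 for Abcc9 and at 116 for Acta2, the actin of smooth muscle, so these channel genes were lower there than in the endothelial cells. Most UMIs of both channel genes lay in barcodes of neither class. The median depth was 2770 UMIs in the cells with at least 3 UMIs of Rgs5 and 2429 in those without. The part that pericytes in the same droplet have in these values was not tested.

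**Figure D5:**
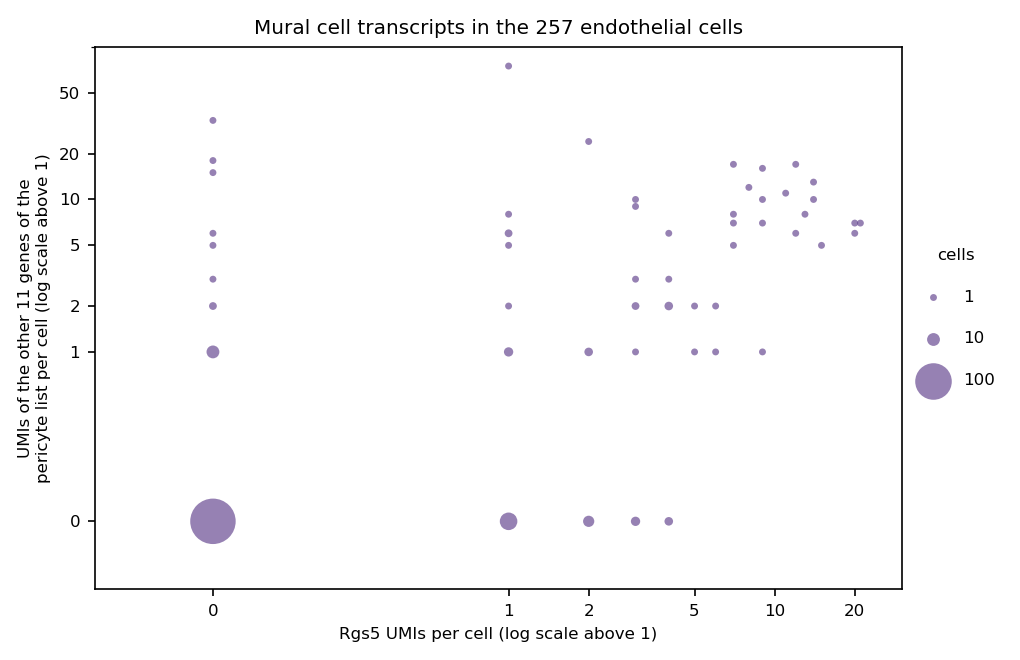
UMIs of Rgs5 (x axis) and summed UMIs of the other genes of the pericyte and smooth muscle list (y axis) in each of the 257 endothelial cells, both on a log scale above 1. Dot area rises with the number of cells at a position. The 174 cells without Rgs5 lie at the left edge, most of them at 0 on both axes, and cells with 5 or more UMIs of Rgs5 all held other genes of the list.

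Transcripts of other cell types were counted as well. At least 2 UMIs of the pericyte, fibroblast, macrophage, lymphocyte or epithelial list were found in 123 cells (47.9%), at a median of 3478 UMIs beside 2096.5 in the other 134. The pericyte and epithelial lists gave 70 cells each, beside 1.48% and 18.2% of lymphocytes, the macrophage list 15, the fibroblast list 10 and the lymphocyte list 5. The summed level of the epithelial list was 14.6, beside 14.0 in lymphocytes, 16.6 in mural cells and 55.8 in fibroblasts. Haemoglobin was found in few cells, with 1518 UMIs of Hbb-bs in 15 cells and up to 387 in 1 cell. No doublet caller was run. Without the 123 cells, 1200 genes were at least 4-fold higher than in the other barcodes, of which 899 were among the 1025, and the part of shared droplets in any of these values was not tested.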

How the data were processed

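Single-cell suspensions of SMG and SLG were made into 10x Genomics 3' libraries, 4 samples in 1 matrix. The authors deposited raw UMI counts from Cell Ranger 6.0.1, not normalized. The submitters' processing notes name mm10, and the annotation release is not given in the sources used here. Each molecule counts once whatever the length of its transcript. All 15707 barcodes were kept, with no doublet caller and no correction for free RNA. The cells, the gene lists and the classes were chosen with earlier results of these data known.

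UMIs were summed over a class and divided by its UMIs outside 71 secretory genes, 48 of them detected. Intervals are exact Poisson for levels, exact conditional for ratios and Clopper-Pearson for shares, all at 95%. A ratio against 0 UMIs was computed against 3 counts and is a bound. Such a bound was called only in the direction it supports. Lymphocytes had at least 3 UMIs of a list of 9 genes, Ptprc, at most 1 UMI of the 5 rule genes, and at most 1 UMI of the C1q genes. Both stromal classes had at most 1 UMI of the rule genes, no Ptprc and Mucl2 under 30% of their UMIs. Mural cells also had at most 2 UMIs of Col1a1 and Col1a2 and at most 1 of Krt14 and Krt5, limits not set for fibroblasts. Fibroblasts had at least 4 UMIs of Col1a1, Col1a2, Col3a1, Dcn and Pdgfra, and mural cells at least 4 of Rgs5, Notch3, Cspg4, Pdgfrb and Myh11. The genes named were the 25 with the largest ratio, the 15 with the highest level, all genes of the lists and the 8 per marked class with the largest ratio. Cells were also thinned to 1000 UMIs, a depth that every cell of the classes reached. Positions were read from GENCODE M21 by Ensembl identifier, for 430 of 431 named genes. The alternatives were other limits of the rule, all UMIs as denominator, other filters, means over cells and thinning. Leaving out mixed cells, which held UMIs of other cell types, was planned for the gene counts and ratios. It was chosen after seeing the data for the marked classes, as was leaving out the lymphatic marked cells or the top cell of a gene. Some genes of the lists are not reported here. The Poisson interval of levels and a simpler form of the ratio were tested on simulated Poisson counts of equal depth. Scripts ran in Python 3.11.15 with pandas 2.3.3, scipy 1.17.1 and numpy 2.4.6, and matplotlib 3.10.9 drew the plots.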

Additional observations from a re-analysis of the deposited data

How the results depend on the processing

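The number of endothelial cells stayed within 1.5 times its value under every alternative, between 202 and 306. The 1025 genes higher than in the other barcodes became 4978 with all UMIs as the denominator, which moved the median log2 ratio from 0.09 to 1.74, and 1677 with no filter on low values. The 447 genes higher than in fibroblasts became 259 with at least 50 UMIs and 904 with no filter, and the 545 higher than in mural cells became 319 with at least 50 UMIs. The 78 arterial marked cells became 46 with 3 UMIs needed, 26 after thinning and 36 without cells that held UMIs of other cell types, and the 22 venous marked cells became 9, 10 and 10. The last of these settings was chosen after seeing the data. Of 173 ratios of the 25 leading genes, which were chosen for their size, recomputed under 7 alternatives, 41 moved past their counting interval. These were 24 with all UMIs as the denominator, 13 as means over cells, down to 38.7 for Syt15, and 4 without cells that held UMIs of other cell types. Leaving out 1 sample at a time was not possible because the 4 samples cannot be told apart in the matrix. No paired analysis was possible because the barcodes carry no sample number and there is 1 group. Depth limits genes of a few UMIs: 1 gene with 3 UMIs in all endothelial cells is at 0.0466, and a share of 0 of 257 cells allows up to 1.17%.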
